A study of Mus musculus with 20 samples.

Results

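Markers of transmitters other than serotonin were examined in sorted mouse serotonin (5-HT) neurons, as 10 genes chosen by their symbols out of the 22556 genes of the deposited stage table. They are the vesicular glutamate transporters Slc17a6, Slc17a7 and Slc17a8, the GABA genes Gad1, Gad2 and Slc32a1, the catecholamine genes Th, Slc6a3 and Slc6a2, and Chat for acetylcholine. All 10 were found in the stage table and in both knockout tables. They were chosen by name, with earlier results of these data known. The questions were whether these neurons carried RNA of another transmitter system while they matured, and whether its level differed where the transcription factor Pet-1 was lost.

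A neuron's transmitter is set by the enzyme that makes it, the carrier that loads it into vesicles and the transporter that takes it back up. Serotonin neurons use Tph2 and Ddc for synthesis, Slc18a2 for loading and Slc6a4 for reuptake, and Pet-1, the ETS-family protein encoded by Fev, is a regulator of these genes. A share of serotonin neurons is known to hold the glutamate transporter VGLUT3, the product of Slc17a8, and can release glutamate as well. GABA needs a glutamate decarboxylase (Gad1 or Gad2) and the vesicular carrier Slc32a1, catecholamines need tyrosine hydroxylase (Th), and acetylcholine needs choline acetyltransferase (Chat).

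The series held 20 samples in 8 groups, all labelled C57BL/6. Messenger RNA was profiled in 18 libraries of neurons that were sorted by flow cytometry for the yellow fluorescent protein EYFP. Wild-type neurons came from embryos at E11.5 and E15.5 (days after conception) and from pups at postnatal days 1 to 3 (PN), with 3 libraries each made with the Clontech SMARTer kit. At E15.5, Pet-1-/- neurons were profiled in 3 Clontech libraries, and wild-type and Pet-1-/- neurons in 3 NuGEN Ovation libraries each. The other samples were chromatin of dissected hindbrain from the midbrain border to rhombomere 4, precipitated through a Myc tag on Pet-1 (mycPet-1), and its input. Their labels conflict: one field gives wild type and E14.5 as the last age, while the protocol gives Pet-1-/- embryos carrying the ePet-mycPet-1 and ePet-EYFP transgenes and E15.5 as the last age. ePet is an enhancer of the Pet-1 gene that drives expression in serotonin neurons. For the sorted neurons the protocol names EYFP without its driver. The sources do not say that the libraries came from separate animals, so p-values measure only the spread between these libraries, which may be technical. Levels are FPKM, sequenced fragments relative to transcript length and to all mapped fragments. Being per length allows a rough comparison between genes, but ratios between genes also differed between the libraries of the 2 kits. The files hold no read numbers, so the depth behind these levels is unknown.

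The labels were checked on Fev and on Tph2, which marks serotonin neurons. Fev, the targeted gene, was at 31.1 FPKM in wild type and 0.422 in the knockout with the Clontech kit, and at 34.9 and 0.308 with the NuGEN kit, in the authors' deposited tables. Tph2 was at 63.5 and 9.75 FPKM (Clontech) and at 218 and 11.1 FPKM (NuGEN). Each stage library held between 9614 and 11280 genes at 1 FPKM or more. Markers of other cells differed between libraries: the summed FPKM of 8 microglia markers was 7.35 to 27.8 in the 6 embryonic libraries and 116, 979 and 131 in PN libraries a, b and c, and that of 9 astrocyte markers was 53.7 to 144 in the embryo and 1305, 4807 and 656 at PN. Most of the astrocyte sum at PN was 1 gene, Apoe, at 1244.5, 4698 and 566 FPKM in libraries a, b and c. Of the 7 astrocyte markers tested, 2 were called higher at PN than at E15.5 (Apoe and Aqp4) and 0 lower. The PN sums thus do not show a rise of astrocyte markers as a set. Dbh and Phox2a, which mark noradrenergic neurons, were listed at 0 in all 9 stage libraries. In bulk RNA of sorted cells, fewer cells of a type and less RNA per cell cannot be told apart.

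The promoter windows of 4 members are shown first, picked by their peaks: Slc17a8 and Th had no mycPet-1 peak near them, while Gad2 and Slc32a1 had peaks inside the gene. Each runs from 250 bases before to 50 bases after a RefSeq start (GRCm38.p6, the assembly of mm10), 5′ to 3′ on the gene's strand. Capitals mark GGAA or its reverse complement TTCC, the core letters that ETS proteins recognise. The windows are chr10:89621200-89621499 on the minus strand for Slc17a8, chr7:142899946-142900245 on the minus strand for Th, chr2:22622077-22622376 on the plus strand for Gad2 and chr2:158610508-158610807 on the plus strand for Slc32a1.
Slc17a8: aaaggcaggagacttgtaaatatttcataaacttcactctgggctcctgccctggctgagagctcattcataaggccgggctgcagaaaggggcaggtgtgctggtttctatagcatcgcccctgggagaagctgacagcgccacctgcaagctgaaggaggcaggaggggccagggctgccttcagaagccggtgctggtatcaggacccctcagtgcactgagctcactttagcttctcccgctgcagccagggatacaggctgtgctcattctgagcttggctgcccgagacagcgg
Th: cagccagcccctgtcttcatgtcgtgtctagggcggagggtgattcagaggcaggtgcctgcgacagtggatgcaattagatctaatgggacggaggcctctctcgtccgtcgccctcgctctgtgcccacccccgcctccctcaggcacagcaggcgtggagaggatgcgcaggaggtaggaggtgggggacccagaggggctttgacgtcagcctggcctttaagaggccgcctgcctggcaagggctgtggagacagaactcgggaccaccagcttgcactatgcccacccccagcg
Gad2: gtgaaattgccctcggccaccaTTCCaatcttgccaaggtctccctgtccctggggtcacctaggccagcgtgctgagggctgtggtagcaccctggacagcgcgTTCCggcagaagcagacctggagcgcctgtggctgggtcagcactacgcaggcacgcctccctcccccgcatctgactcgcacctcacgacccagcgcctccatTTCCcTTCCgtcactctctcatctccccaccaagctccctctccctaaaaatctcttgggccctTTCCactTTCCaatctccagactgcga
Slc32a1: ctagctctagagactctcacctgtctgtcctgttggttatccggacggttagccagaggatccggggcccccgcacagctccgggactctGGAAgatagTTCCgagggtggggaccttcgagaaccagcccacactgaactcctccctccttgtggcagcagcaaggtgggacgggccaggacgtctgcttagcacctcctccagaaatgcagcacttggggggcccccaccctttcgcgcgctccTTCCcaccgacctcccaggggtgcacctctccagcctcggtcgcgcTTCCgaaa
The windows of Slc17a8 and Th held 0 matches to GGAA on either strand, while 96.0% of 32851 RefSeq promoter windows of the same length held at least 1, with a median of 3. Gad2 held 6 matches, 1 of them within the longer CCGGAA, which 14.9% of all windows held, and Slc32a1 held 4. A RefSeq entry at a second start of Slc17a8 (chr10:89599766-89600065, minus strand) held 5 matches, 1 of them within GGAAGT, which 23.8% of all windows held. Windows were found for 9 of the 10 members, 11 in all, and the exception was Slc6a2. Among the others, Chat held 8 matches, Slc17a6 held 6 and 4 in its windows, Slc17a7 held 4, and Gad1 and Slc6a3 held 1 each. Matches did not follow peaks over the members: Chat, with 8 matches, had no peak within 10 kb, and Gad1, with 1 match, had 2 peaks. A match is a description of the letters and shows no binding.

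Of the 10 members, Slc17a8 was the one at a high level at every stage. It was at 98.0, 86.1 and 138 FPKM in E11.5 libraries a, b and c, at 86.3, 84.9 and 118 at E15.5, and at 75.6, 66.4 and 85.5 at PN. All 9 values lay above those of every other member in every library, the next being Th in PN library b at 64.7 FPKM. By mean FPKM it stood at rank 1139, 1275 and 1489 of 22542 genes at the 3 stages, above at least 93.4% of them at each.

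Slc17a8 passed none of the stage tests. The difference was -0.14 on the log2(FPKM + 1) scale from E11.5 to E15.5 (95% interval -0.72 to 0.44, limma, adjusted p = 0.728), -0.33 from E15.5 to PN (-0.91 to 0.24, adjusted p = 0.404) and -0.47 from E11.5 to PN (-1.05 to 0.10, adjusted p = 0.210). The 3 PN values lay below the 3 E11.5 values, by a narrow gap between 85.5 and 86.1 FPKM, and the other pairs of stages overlapped. The last interval holds a fall of 1.05 as well as no fall, so a steady level was not shown. Over the 9 libraries the genes with the most similar pattern among 11740 others were Ddx5 (Pearson r = 0.976), Dhx15 (0.965) and Pak3 (0.958), given as a description with no test.

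**Figure D1:**
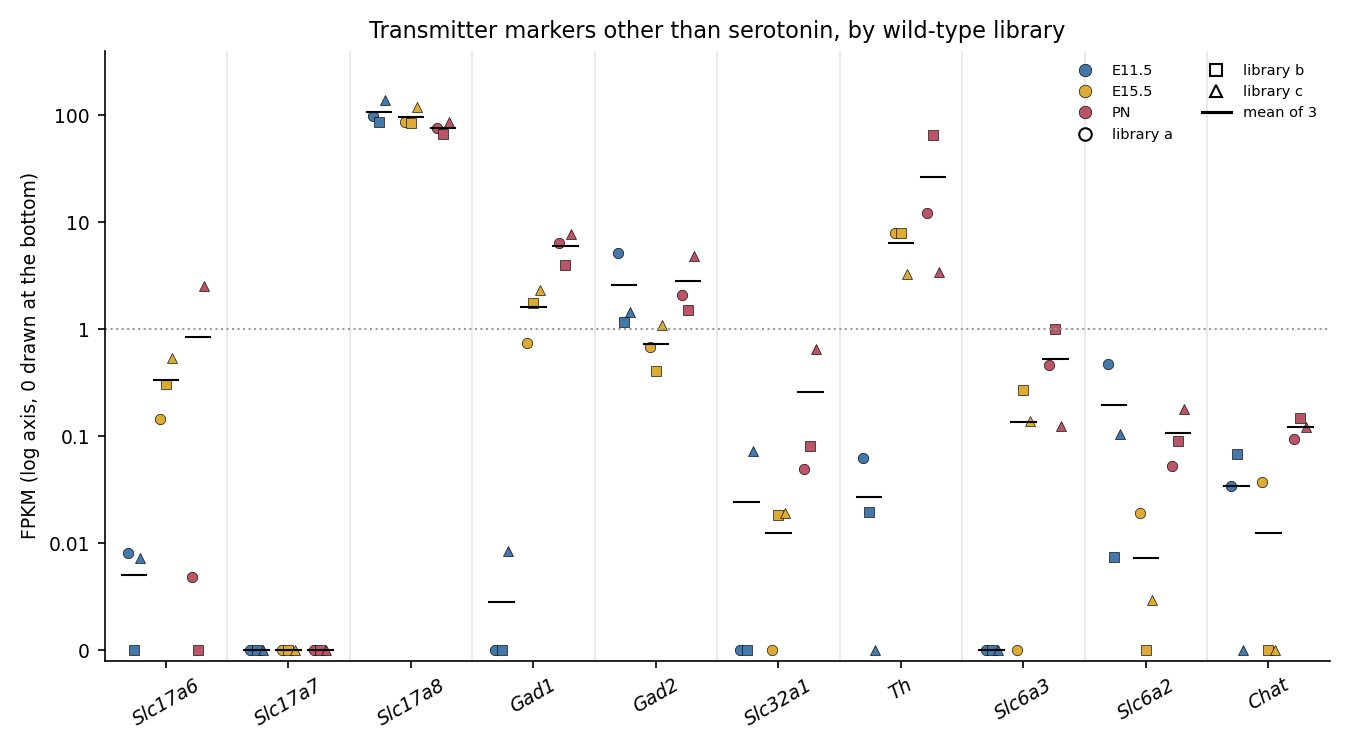
FPKM of the 10 members in each of the 9 wild-type stage libraries, on a log axis with values of 0 drawn at the bottom; colours are stages, symbols are libraries a to c, bars are means of 3 and the dotted line is 1 FPKM. Slc17a8 lies between 66.4 and 138 FPKM throughout, Gad1 and Th are near 0 at E11.5 and above 0.7 FPKM later, and Slc17a7 is at 0 in every library.

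The other vesicular glutamate transporters, which mark most glutamate neurons of the brain, were low. Slc17a6 (VGLUT2) was at 0.00808, 0 and 0.00729 FPKM at E11.5, at 0.145, 0.312 and 0.542 at E15.5, and at 0.00487, 0 and 2.53 at PN. It passed 1 FPKM in 1 library, PN c. Slc17a7 (VGLUT1) was listed at 0 in all 9. Neither met the filter for testing, which asked for at least 1 FPKM in at least 3 libraries.

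Set against the other carriers that fill synaptic vesicles, Slc17a8 took the larger part of the RNA. The 6 carriers compared were Slc17a6, Slc17a7, Slc17a8, Slc32a1, Slc18a2 for monoamines and Slc18a3 for acetylcholine. Slc17a8 made up 70.6% to 83.1% of their summed FPKM in the 9 stage libraries and Slc18a2 16.6% to 29.4%. The ratio of Slc17a8 to Slc18a2 ran from 2.40 (E11.5 c) to 5.00 (E15.5 b), so the glutamate carrier was above the monoamine carrier in 9 of 9 libraries. These are Clontech libraries. In NuGEN wild type at E15.5 the ratio was 1.47 and the share of Slc17a8 was 59.6%, against 4.34 and 81.0% in Clontech wild type. RNA shares say nothing of how many cells held each carrier or of protein. Against Tph2, the serotonin-making enzyme, the ratio of Slc17a8 was 0.676, 0.752 and 0.451 at E11.5, 1.33, 1.66 and 1.55 at E15.5, and 1.06, 0.4997 and 1.22 at PN. All 3 Clontech ratios at E15.5 lay above those of the other stages, while the NuGEN wild type of that age gave 0.566, within the E11.5 range.

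**Figure D2:**
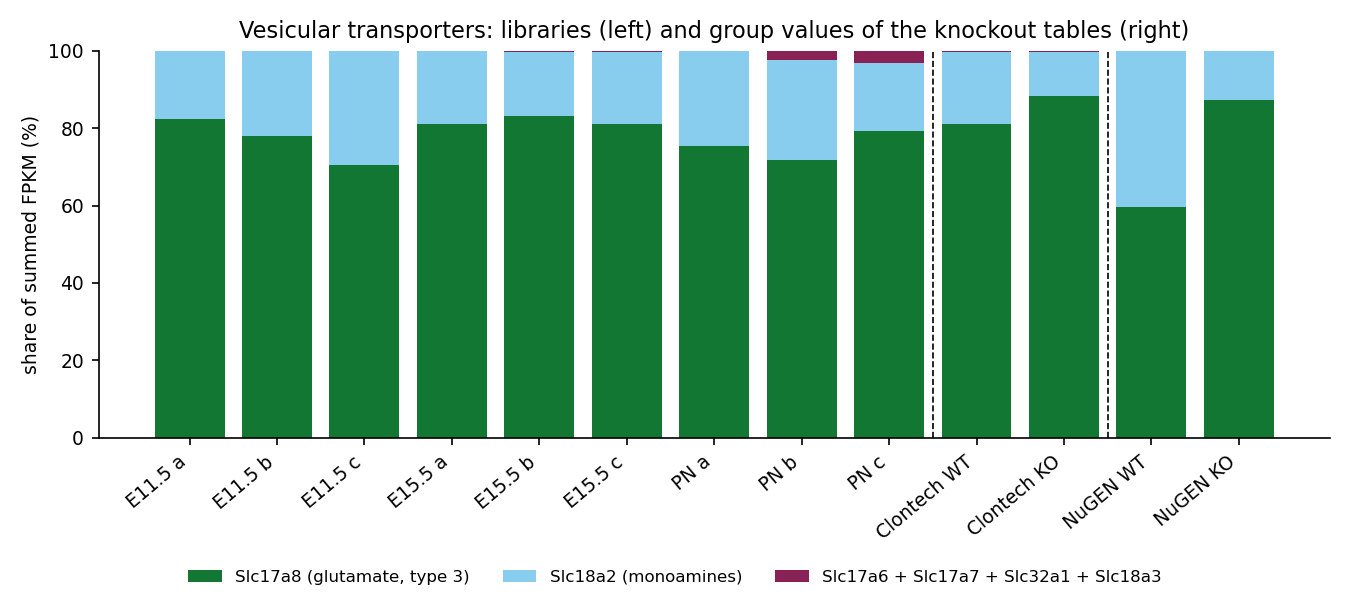
Share of the summed FPKM of 6 vesicular transporters (percent) in each stage library and, right of the dashed lines, in the group values of the knockout tables. Slc17a8 is the largest block in every bar, from 59.6% in NuGEN wild type to 88.4% in Clontech knockout.

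Genes that supply and take up glutamate were read as a list of 9, of which 8 met the filter. From E11.5 to E15.5, 2 of the 8 rose (Got1, an aspartate aminotransferase, and Slc1a1, a neuronal glutamate transporter) and 1 fell (Slc38a2, a glutamine carrier), with a median of 0.21 on the log2(FPKM + 1) scale against 0.11 over all genes. Over all 11741 genes, 17.4% rose and 1348 fell. Slc1a1 was at 0, 0.706 and 0.0657 FPKM at E11.5 and at 2.64, 4.20 and 2.78 at E15.5. From E15.5 to PN, 1 of the 8 rose, the glutamate transporter Slc1a6, against 10.6% of all genes.

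Of the GABA genes, Gad1 rose at each step, Gad2 passed no test and Slc32a1 was too low to be tested. Gad1 was at 0, 0 and 0.00845 FPKM at E11.5, at 0.738, 1.77 and 2.34 at E15.5, and at 6.35, 4.01 and 7.81 at PN. No stages overlapped, and each later library was above each earlier one. The rise was 1.33 on the log2(FPKM + 1) scale from E11.5 to E15.5 (SE 0.36, limma, adjusted p = 0.0151), 1.44 from E15.5 to PN (SE 0.36, adjusted p = 0.0145) and 2.78 over the whole span (SE 0.36, adjusted p = 1.33e-04). The first step lost its call without E15.5 library b (1.26, adjusted p = 0.0524) or c (1.13, adjusted p = 0.0656). The authors' deposited table did not call that step (q = 0.186) and called the later one (q = 0.00314). The later step lost it without E15.5 library a (1.17, adjusted p = 0.0635) and with a pseudocount of 0.1 (1.92, adjusted p = 0.055). The span from E11.5 to PN kept its call in every alternative run.

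Gad2, which encodes the decarboxylase held mainly at nerve endings, was present from the first stage. It was at 5.19, 1.18 and 1.44 FPKM at E11.5, at 0.679, 0.408 and 1.10 at E15.5, and at 2.08, 1.52 and 4.87 at PN. The 3 E15.5 values lay below all the others. The differences were -0.91 into E15.5 (SE 0.46, limma, adjusted p = 0.155) and 1.07 out of it (SE 0.46, adjusted p = 0.120), and neither passed. Without E11.5 library a the first was -0.43, and without PN library c the other was 0.71. The authors' deposited table called both, lower at E15.5 than at E11.5 (q = 0.0175) and higher at PN than at E15.5 (q = 0.0109).

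The carrier that GABA release depends on stayed under 1 FPKM. Slc32a1 was at 0, 0 and 0.0735 FPKM at E11.5, at 0, 0.0183 and 0.0194 at E15.5, and at 0.0501, 0.0805 and 0.657 at PN. The highest PN values of Gad1, Gad2, Slc32a1 and Slc17a6 were all in library c. Of 6 markers of glycine and GABA interneurons, a list that holds Gad2 and Slc32a1, the summed FPKM was 7.46, 3.20 and 2.46 at E11.5, 0.712 to 1.45 at E15.5, and 2.15, 2.95 and 7.26 at PN. Slc6a5, Slc32a1, Lhx1 and Pax2 were under 1 FPKM in all 9, and the part of other neurons in the Gad values was not tested. Among 8 genes of GABA and glycine handling, 6 were tested: Abat, which breaks GABA down, rose in the first interval, and the uptake transporters Slc6a11 and Slc6a9 were among those that rose from E15.5 to PN. Slc6a11, a transporter known mostly from astrocytes, was at 0.310 to 1.28 FPKM at E15.5 and at 10.1, 16.3 and 5.46 at PN. In those PN libraries the astrocyte sum was 1305, 4807 and 656, most of it from Apoe. The part of astrocytes in the rise of Slc6a11 was not tested.

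In the Clontech stage libraries, Th went from near 0 to a level well above the other catecholamine genes. It was at 0.0623, 0.0198 and 0 FPKM at E11.5, at 7.90, 7.97 and 3.30 at E15.5, and at 12.1, 64.7 and 3.42 at PN. Every later stage library lay above every E11.5 library, while E15.5 and PN overlapped. NuGEN wild type at E15.5 held Th at 0.0622 FPKM, within the range of the Clontech E11.5 libraries. NuGEN libraries were made at E15.5 only, so a change with stage could not be read with that kit. Kit and library cannot be told apart in the difference between the E15.5 values. The rise from E11.5 to E15.5 was 2.77 on the log2(FPKM + 1) scale (SE 0.74, limma, adjusted p = 0.0148) and that from E11.5 to PN was 3.93 (SE 0.74, adjusted p = 0.00176). From E15.5 to PN the difference was 1.16 (SE 0.74, adjusted p = 0.292). The first step lost its call without E15.5 library a (2.60, adjusted p = 0.0552) or b (2.59, adjusted p = 0.0520), and without a filter on low values (adjusted p = 0.0721). The last step ranged from 0.12 without PN library b (adjusted p = 0.90) to 2.07 without PN library c, where it was called (adjusted p = 0.0448). The authors' deposited table did not call the first step (q = 0.343) and called the last (q = 0.00103).

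The spread of Th at PN went with that of some other genes and not of others. PN library b, the highest for Th, was also the highest for the microglia sum and for Aldh1a1, an enzyme marker of a class of dopamine neurons. Aldh1a1 was at 7.89, 56.0 and 0.744 FPKM in libraries a, b and c. The serotonin genes Tph2 (71.6, 133 and 69.8 FPKM) and Ddc (202, 258 and 165) were highest in b too. Among the dopamine neuron markers, Slc6a3 and Pitx3 were also highest in b. Nr4a2 was lowest there (2.17, 0.636 and 1.47 FPKM), and Lmx1a was highest in c (0.444 FPKM). The markers of dopamine neurons were mixed. Slc6a3, the dopamine transporter, was at 0 in all 3 E11.5 libraries, at 0, 0.271 and 0.140 FPKM at E15.5, and at 0.466, 0.999 and 0.125 at PN, and the factors Pitx3 and Lmx1a were under 1 FPKM in all 9. The factor Nr4a2 was at 1.44 to 3.01 FPKM at E11.5, 0.336 to 1.004 at E15.5 and 0.636 to 2.17 at PN, and Ddc and Slc18a2, which serotonin and dopamine neurons share, were at 148 to 348 and 17.0 to 57.4 FPKM over the 9 libraries. The 5 dopamine neuron markers, Aldh1a1 and Slc6a3 among them, summed to 1.49 to 3.04 FPKM at E11.5, 0.336 to 1.497 at E15.5 and 10.54, 58.1 and 2.78 at PN. The part of dopamine neurons or of other cells in the Th values was not tested. Slc6a2, the noradrenaline transporter, was at 0.472, 0.00744 and 0.104 FPKM at E11.5, at 0.0192 or less at E15.5 and at 0.0530, 0.0914 and 0.180 at PN.

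**Figure D3:**
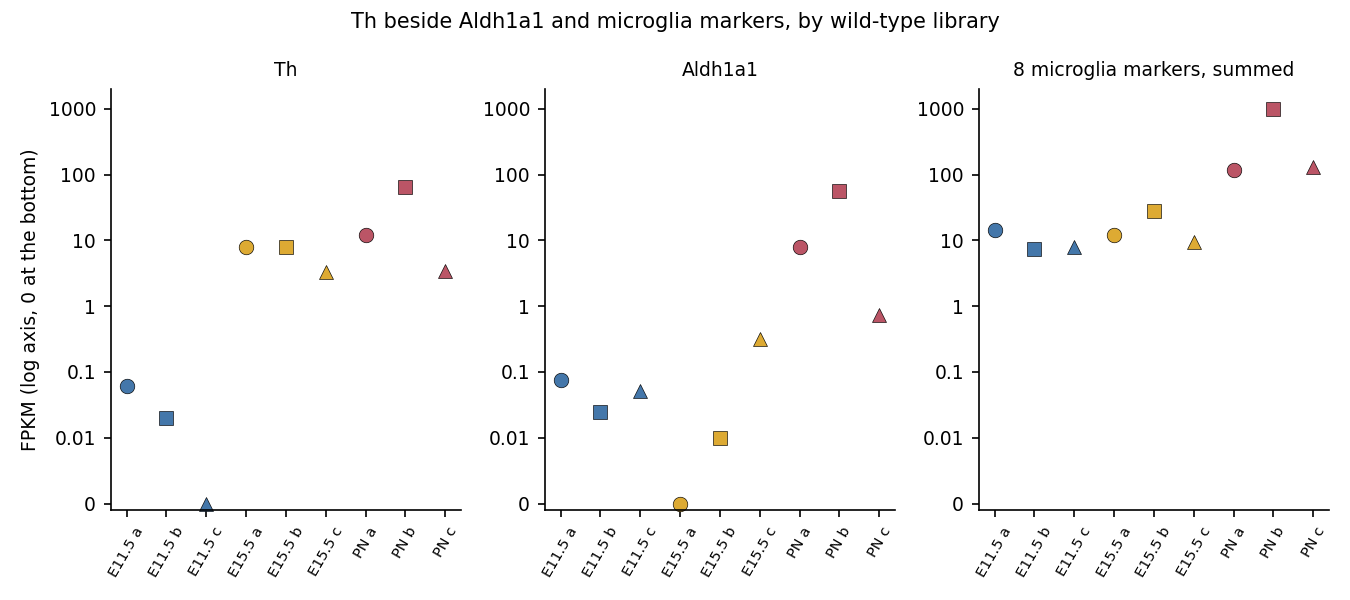
FPKM of Th, Aldh1a1 and the sum of 8 microglia markers in the 9 wild-type stage libraries, on log axes with 0 at the bottom; colours are stages and symbols are libraries a to c. PN library b is the highest point in all 3 panels, at 64.7, 56.0 and 979 FPKM.

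Chat was under 0.15 FPKM in every library, at 0.0341, 0.0683 and 0 at E11.5, at 0.0373, 0 and 0 at E15.5 and at 0.0946, 0.147 and 0.122 at PN. The 3 PN values lay above the other 6, at a level too low for the filter. Ache, which breaks acetylcholine down and is not limited to cholinergic neurons, was at 0.322, 4.19 and 1.65 FPKM at E15.5 and at 63.9, 71.3 and 48.0 at PN, a rise of 4.54 (SE 0.55, limma, adjusted p = 2.97e-04). It was 1 of 2 genes tested among 5 of acetylcholine handling.

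In all, 4 of the 10 members met the filter, 5 were under 1 FPKM in all 9 libraries and 1 of these was at 0 throughout. Slc17a8 met it at every stage, while Gad1, Gad2 and Th met it only through the stages where they were higher, so the share of the 4 that was called is not a result. From E11.5 to E15.5, Gad1 and Th were called higher, while 17.4% of 11741 genes were. The Th call rests on Clontech libraries, while NuGEN wild type at E15.5 held Th at 0.0622 FPKM. From E15.5 to PN, Gad1 was called higher, against 10.6% of genes. From E11.5 to PN, Gad1 and Th were called higher, against 17.4%. The authors' deposited stage tables called 1 member, Gad2, lower from E11.5 to E15.5 (background 17.0% lower and 21.3% higher), with Gad1 at q = 0.186 and Th at q = 0.343. From E15.5 to PN they called Gad1 (q = 0.00314), Gad2 and Th (q = 0.00103) higher (background 15.9% higher and 17.1% lower).

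Factors that direct other transmitter fates in the brainstem were read as a list of 23, of which 7 met the filter. In the first interval Foxa1 rose, and Gata2 and Lhx5 fell. Gata2, which serotonin precursors and GABA precursors both use, was at 173, 143 and 89.2 FPKM at E11.5, at 44.5, 38.8 and 20.3 at E15.5, and at 15.6, 10.7 and 13.2 at PN. It fell again from E15.5 to PN, as did Gata3. From E11.5 to PN, Foxa2 fell too (limma, adjusted p = 0.0288), though the libraries of the stages overlapped. Nr4a2 and Pou4f1 met the filter and passed no stage test.

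In the knockout, the comparison rests on the group values and q-values of the authors' deposited tables, 1 value per group, with a call where q was below 0.05, the ratio reached 1.5-fold and either group reached 1 FPKM. Wild-type libraries of the Clontech table are also those of the E15.5 stage, so stage and knockout values are not independent. In that table, 4 members could be called and 1 was, Slc17a8, which was lower in the knockout: 110 FPKM in wild type and 63.9 without Pet-1 (log2 ratio -0.78, q = 0.00391). In the NuGEN table it was at 123 and 92.8 FPKM (log2 ratio -0.41, q = 0.263), lower by 1.33-fold and not called. Among all eligible genes, 1.85% were called lower and 0.969% higher with Clontech, and 4.56% lower and 8.19% higher with NuGEN. The difference between the kits in the fold of Slc17a8 was not tested, since each table holds 1 value per group.

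Slc17a8 was lower in the knockout by a smaller fold than Slc18a2 or Tph2, so its ratio to each was higher there. Its ratio to Slc18a2 was 4.34 in wild type and 7.82 in the knockout (Clontech) and 1.47 and 6.86 (NuGEN). Its ratio to Tph2 was 1.73 and 6.55 (Clontech) and 0.566 and 8.37 (NuGEN). These ratios have no error. The 6-gene serotonin list was called lower at 5 of 6 (Clontech) and 6 of 6 (NuGEN), against 1.85% and 4.56% of all eligible genes. The astrocyte sum was lower in the knockout as well, at 86.0 and 17.6 FPKM (Clontech) and 24.2 and 16.8 (NuGEN), and the microglia sum was 15.3 and 2.09 (Clontech) and 2.45 and 1.23 (NuGEN). Other cell lists went in opposite directions with the 2 kits. The sum of 8 progenitor markers was 1367 and 485 FPKM (Clontech) and 180 and 310 (NuGEN). That of 7 oligodendrocyte markers was 35.2 and 29.5 (Clontech) and 12.1 and 17.9 (NuGEN). The part of such cells in the Slc17a8 values was not tested.

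Gad2 was the one member called in the NuGEN table, where 3 could be called. It was at 0.951 FPKM in wild type and 1.86 without Pet-1 (log2 ratio 0.97, q = 0.0269), and in the Clontech table at 0.775 and 1.78 (log2 ratio 1.20, q = 0.0916), which was not called. The knockout value was thus 1.96-fold (NuGEN) and 2.29-fold (Clontech) the wild-type value, at levels of 0.775 to 1.86 FPKM. Gad1 had the other sign in both, at 1.77 and 0.797 FPKM (log2 ratio -1.15, q = 0.238) and at 2.18 and 1.37 (log2 ratio -0.67, q = 0.246), and was called in neither. Slc32a1 was at 0.0111 and 0.0223 FPKM (Clontech) and 0.0629 and 0.0760 (NuGEN). Markers of glycine and GABA interneurons, Gad2 included, summed to 1.04 and 2.71 FPKM (Clontech) and to 1.43 and 3.18 (NuGEN). Gad2 itself was the larger part of each sum, so the sums mostly restate it. The part of such interneurons in the Gad2 values was not tested.

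Th was at quite different levels with the 2 kits. With Clontech it was at 5.66 FPKM in wild type and 2.15 in the knockout (log2 ratio -1.398, q = 0.136), and with NuGEN at 0.0622 and 0. The wild-type ratio of Clontech to NuGEN was 0.890 for Slc17a8, 0.813 for Gad1 and 0.815 for Gad2, but 4.52 for Slc6a3 and 0.176 for Slc32a1, which were under 1 FPKM in both. Between the same wild-type groups the astrocyte sum was 86.0 FPKM with Clontech and 24.2 with NuGEN and the microglia sum 15.3 and 2.45, and their part in the Th values was not tested. The kits were normalised separately and applied to different libraries, so kit and library cannot be told apart. Slc17a6 was also higher with Clontech, at 0.368 and 0.0534 FPKM with Clontech (q = 0.252) and 0.0192 and 0 with NuGEN.

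The remaining members stayed at or near 0 without Pet-1. Slc17a7 was at 0 in both Clontech groups and at 0 and 0.00962 FPKM with NuGEN. Slc6a3 was at 0.152 and 0.261 FPKM (Clontech) and 0.0335 and 0.0849 (NuGEN). Slc6a2 was at 0.00728 and 0.00226 and at 0 and 0.00300, and Chat at 0.0118 and 0 and at 0 and 0.00337.

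**Figure D4:**
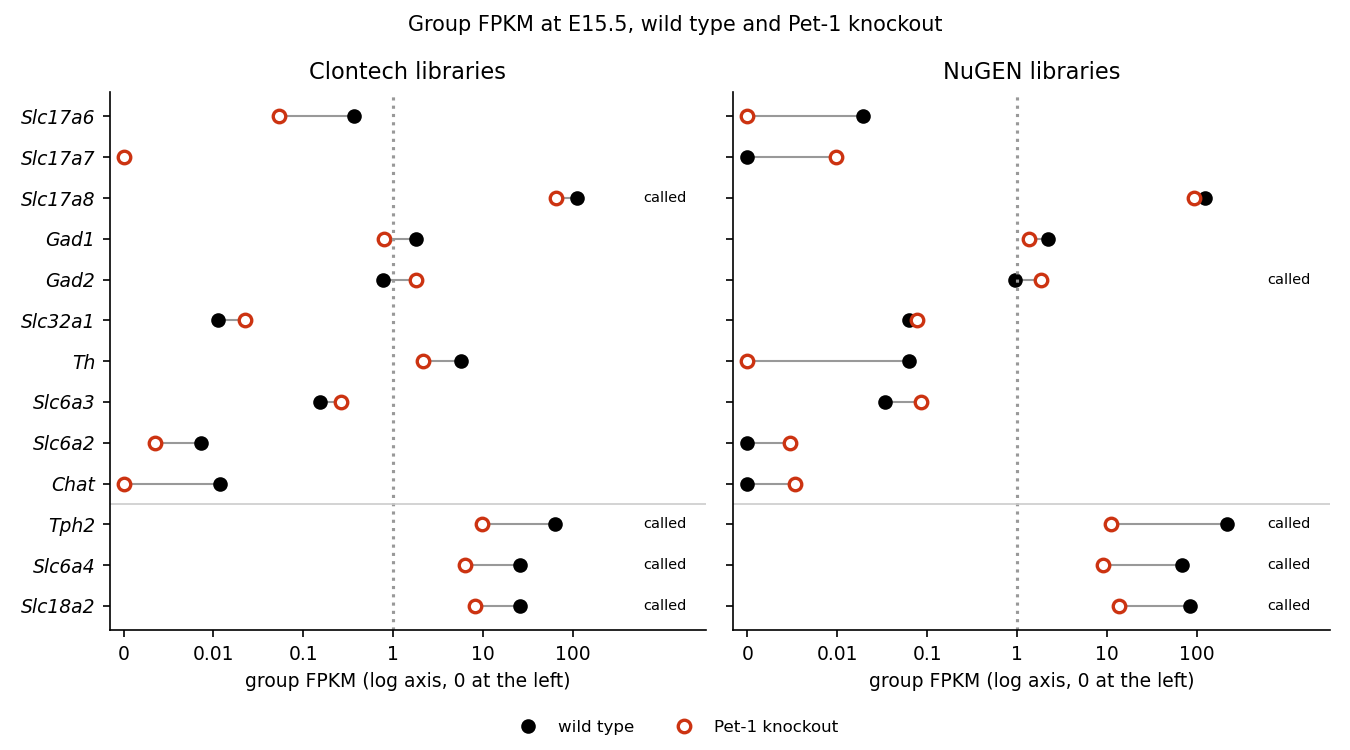
Group FPKM of the 10 members and of 3 serotonin genes at E15.5 in wild type (filled) and Pet-1 knockout (open), from the authors' deposited tables of the Clontech and NuGEN libraries, on a log axis with 0 at the left; 'called' marks genes that met the call by the authors' q-values. Among the members, Slc17a8 is called with Clontech and Gad2 with NuGEN, while Tph2, Slc6a4 and Slc18a2 are called lower in both.

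The companion lists differed in their calls in the knockout. Of all eligible genes, 1.85% were called lower and 0.969% higher with Clontech, and 4.56% lower and 8.19% higher with NuGEN. None of 8 glutamate-handling genes was called in either table. Of the GABA and glycine genes, Slc6a11 was called higher with NuGEN (1.82 and 3.44 FPKM, q = 0.0279) and none with Clontech. Of 5 catecholamine genes that could be called, 3 were in each table: Ddc and Slc18a2, which serotonin neurons use as well, were lower in both, Gch1, which makes a cofactor of Th and Tph2, was lower with NuGEN, and Pnmt was higher with Clontech. Ddc, Slc18a2 and Gch1 are in the serotonin list too, so their calls repeat those given above. Ddc was at 164 and 44.02 FPKM (q = 0.00391) and at 203 and 38.8 (q = 0.00206). Pnmt, which turns noradrenaline into adrenaline, was listed at 0 in Clontech wild type and at 1.28 FPKM in the knockout (q = 0.00391), and at 0.256 and 1.51 with NuGEN (q = 0.160). Dbh, the enzyme before it, was at 0 in wild type and knockout with both kits. Of the fate factors, Foxa1 was called lower with Clontech (6.17 and 2.96 FPKM, q = 0.0446) and not with NuGEN (3.22 and 2.73 FPKM, q = 0.651). Nr4a2, a factor of dopamine neurons, and Pou4f1 were called higher with NuGEN, at 0.492 and 1.56 FPKM (q = 0.0150) and at 0.427 and 1.403 (q = 0.00837). With Clontech, Nr4a2 was at 0.612 and 1.95 FPKM (q = 0.132) and Pou4f1 at 0.882 and 0.625 (q = 0.733).

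The mycPet-1 peak list held 4934 peaks from 1 precipitate and 1 input, with the authors' score per peak between 50 and 3133 and a median of 88.3. A peak lay within 10 kb of the gene span for 5 of the 10 members, against 28.0% of 21887 protein-coding genes, and with no replicate there is no test. All 3 GABA genes had peaks inside the gene. Gad1 had 2, at chr2:70562767-70563371 (score 59.1) and chr2:70565170-70566411 (score 110), and Gad2 had 1, at chr2:22623051-22624219 (score 102). Slc32a1 had 4 between chr2:158609470-158610153 and chr2:158613988-158615012, of which the strongest, at chr2:158612005-158613582, scored 267 and ranked above 90.9% of all peaks. Gene spans were used without exons, so whether a peak is exonic or intronic was not analysed here.

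The glutamate genes were divided and the others had none. Slc17a6 had 2 peaks inside the gene (scores 74.9 and 56.7), and Slc17a7 had 1 at 9.15 kb upstream (score 77.8). The nearest peak to Slc17a8 was 1550 kb away, to Th 169 kb, to Slc6a2 594 kb, to Slc6a3 24985 bases and to Chat 47.2 kb. The member with the highest RNA level thus had no listed peak near it, while Slc32a1, with the highest number of peaks, was under 1 FPKM in all 9 stage libraries. In the promoter windows printed above, neither Gad2 nor Slc32a1 was covered by a peak: the nearest edge lay 724 bases and 180 bases after the start.

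**Figure D5:**
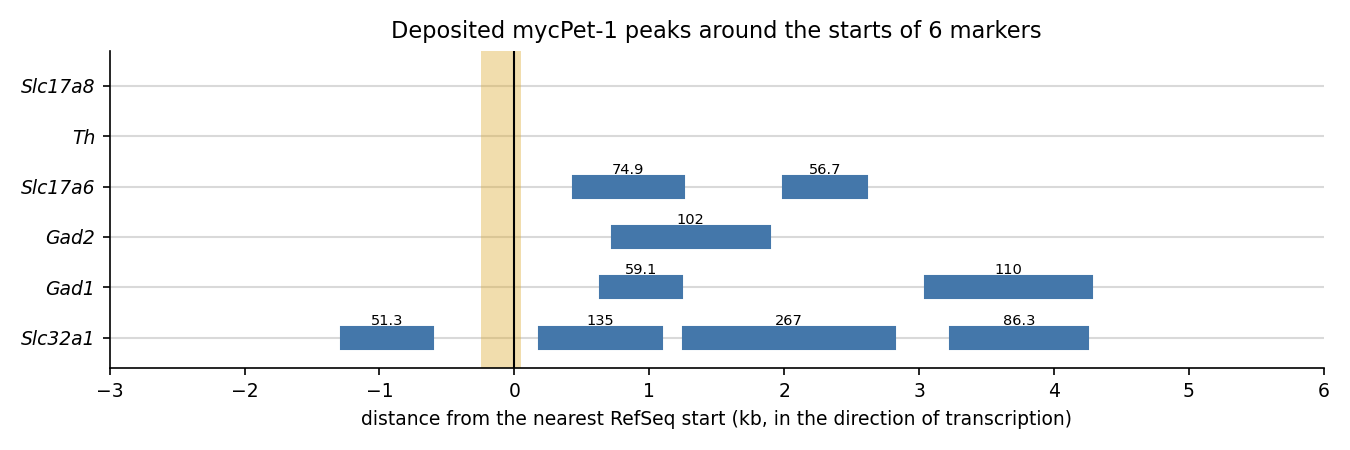
Deposited mycPet-1 peaks (blue bars, with the authors' score above each) by distance from the nearest RefSeq start, in kb along the direction of transcription; the shaded band is the promoter window from 250 bases before to 50 bases after the start. Slc32a1 has 4 peaks, Gad1 and Slc17a6 have 2 and Gad2 has 1, while the rows of Slc17a8 and Th are empty.

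Companion lists differed in how many of their genes had a peak within 10 kb, which 28.0% of all protein-coding genes had. The lists were not tested against that share. Of the 23 fate factors, 21 had one, among them Gata2, Gata3, Foxa1 and Foxa2. The exceptions, named after the result was seen, were Phox2a and Isl1. Of the 9 glutamate-handling genes 6 had one, and of the 8 GABA and glycine handling genes 0. Of the 6 serotonin genes 2 had one, Fev and Ddc, which is near the share of all genes.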

How the data were processed

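Both the members and the companion lists were chosen with earlier results of these data known. Per the submitters' processing notes, reads were handled with TopHat2, Cufflinks and BWA (no versions given) and with MACS 1.4.2, and mm9 and mm10 are named as builds without saying for which data. The authors deposited FPKM for every stage library and, for the knockout, 1 FPKM per group. Their tables have the Cuffdiff layout per the file headers and add a log2 fold change, a p-value and a q-value. The authors' deposited peaks carry a score each, in mm10. Stage columns hold no replicate number, and letters a to c follow the column order. There were 3 further columns that fit no labelled sample and stayed out. No kit is named for the E15.5 columns: their mean was near that of Clontech wild type (median ratio 1.01 over 6386 genes, 5% to 95% of them at 0.874 to 1.19) and less near NuGEN wild type (1.09, 0.482 to 2.06).

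The stages were compared by limma 3.58.1 (R 4.3.3), two-sided, with a mean-variance trend, on values of log2(FPKM + 1), where changes of low genes appear smaller than they are. A single fit held all 9 wild-type libraries (6 residual degrees of freedom) and was checked on simulated data beforehand. Excluded were 14 genes whose estimate failed in the authors' table, and those under 1 FPKM in more than 6 libraries, which left 11741. A call needed an adjusted p (Benjamini-Hochberg) under 0.05 and a 1.5-fold change. For the knockout the q-values of the authors were used. Peaks were assigned to RefSeq GRCm38.p6 gene spans with 10 kb added on either side. All members are named, and of the lists the called genes and up to 4 others by level, except that some list genes are not reported here. Intervals cover 95%. The alternatives changed the pseudocount, the filter, the scaling, the fold threshold, the libraries (each left out in turn), the q-values, the peak distance and the peak score.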

Additional observations from a re-analysis of the deposited data

How the results depend on the processing

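The count of members called from E11.5 to E15.5 was 2, and it was 1 without a filter on low values, 1 by the authors' q-values and 0 to 2 with 1 library left out. From E15.5 to PN it was 1, and it was 0 with a pseudocount of 0.1, 3 by the authors' q-values and 0 to 2 with 1 library left out. From E11.5 to PN it was 2 in every alternative run, and the authors' q-values gave no value for that pair. The Clontech knockout count of 1 became 4 with unadjusted p-values, and the count of members with a peak went from 5 to 3 among peaks scoring above the median (15.8% of all genes), 4 within 5 kb (24.9%) and 7 within 50 kb (44.8%). Of 176 alternatives for single members, 159 kept direction and call, 9 lost the call, 4 gained it and 4 changed sign. Those changing sign had passed no test: Slc17a8 from E11.5 to E15.5 (-0.29 to 0.053 with 1 library left out, the highest without E11.5 c) and Gad2 from E11.5 to PN (-0.20 to 0.63). Without E11.5 b, E11.5 c or PN c, the Gad2 difference was -0.12, -0.04 and -0.20. The cause was not tested. Scaling to the upper quartile moved the median of all genes from 0.11 to -0.02 for E11.5 to E15.5 and the calls from 2046 higher and 1348 lower to 1659 and 1688; for E15.5 to PN, calls went from 1249 and 1121 to 1358 and 976, or to 1100 and 1336 with median centring. Neither scaling changed a member's direction or call. Without a filter Th lost its call from E11.5 to E15.5 (adjusted p = 0.0721). No paired analysis was possible because the columns carry no replicate numbers and the knockout tables hold 1 value per group. Depth is unknown, so members near 0 cannot be told from undetected ones.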
